A study of Mus musculus with 2 samples.

Results

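Cell junction and polarity genes were followed in 2 arrays, one of hepatocytes sorted as positive and one of hepatocytes sorted as negative for Ezrin T567D. The genes were taken by symbol: claudins (Cldn), cadherins (Cdh), Tjp1 to Tjp3, connexins (Gja, Gjb and Gjc), Pard3 and Pard6, desmogleins and desmocollins (Dsg and Dsc), nectins, and 21 further genes such as Ocln, Dsp, Prkci and Stk11. A total of 95 of the 18193 genes on the arrays had a symbol of this kind on a probe set annotated to a single gene, and 189 probe sets stood for them. One of the 95, Pard3bos1, is an RNA annotated opposite to Pard3b and not a polarity protein.

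Ezrin links membrane proteins to the actin cortex, and T567D swaps the threonine whose phosphorylation activates it for an acidic residue. Wild-type male FVB mice aged 6 to 8 weeks received, by rapid tail vein injection, 10 µg of the plasmid PT3EF5α EzrinT567D and 0.8 µg of pCMV/SB in 2 ml of saline. Hepatocytes were isolated with collagenase after 1 week and sorted by GFP, so both groups came from injected livers and differ in the label EzrinT567D negative (GFP-, 1 array) or EzrinT567D positive (GFP+, 1 array). The labels contradict each other on diet and do not settle the time, given as 1 week above and as 2 months in the descriptions. The growth protocol names chow throughout, whereas the descriptions place the negative sample on chow and the positive sample on fast food. Diet and ezrin status therefore cannot be told apart. The sources used here do not give the number of mice, any pooling of RNA or the cell type in which the plasmid's promoter is active.

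Hepatocytes are polarised epithelial cells whose apical membranes face each other across the bile canaliculus. Claudins, occludin and the Tjp scaffolds seal the canaliculus as tight junctions, cadherins and nectins with their catenins hold neighbouring cells together, desmosomes anchor intermediate filaments, and connexins form channels between cells. The Par, Crumbs and Scribble protein complexes set where these junctions lie, and several of their members also act upstream of the Hippo kinases and Yap, the pathway in the series title.

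Signals are MAS5 values, a linear brightness per probe set, on Affymetrix Mouse Genome 430 2.0 arrays. The background floor, the 95th percentile of probe sets for chemosensory receptors, was 252.66 (negative array) and 334.04 (positive array). Each gene was read from its brightest probe set. Genes above the floor of each array, called above both floors, numbered 8362, and 10178 were above it in at least 1. A gene above it in 1 array has only a bound, the brighter signal against the floor of the other array. Because the floors differ, a gene above it in the positive array alone is at least 1.32-fold higher by construction, whereas one above it in the negative array alone has no direction where its signal is under 334.04. Where 2 signals of a gene are given, the first is from the negative array. With 1 array in each group there was no test, no p-value and no replicate error. As technical error, the gap between the log2 ratios of a gene's 2 brightest probe sets had an SD of 0.42 over 3182 genes. Both Ezr probe sets were below the floor in both arrays, so Ezr gives no check of the sort. Hepatocyte markers were above the floor for 7 of 7 genes with a probe set, from 11717.9 to 53836.3, whereas markers of cholangiocytes (0 of 6) and mesothelium (0 of 4) were not. Fewer markers of Kupffer cells (3 of 8) and lymphocytes (1 of 5) than of stellate cells and fibroblasts (6 of 8) were above the floor in at least 1 array, none of them over 702.1.

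Among the junction and polarity genes that could be measured, E-cadherin (Cdh1) had the lowest ratio of positive to negative signal, and nectin-1 (Nectin1) and claudin-2 (Cldn2) had the highest. Of the 95 genes, 46 were above the floor in at least 1 array: 42 in both, 3 in the negative array alone and 1 in the positive array alone. At 2-fold, 1 of these 46 genes was higher (Nectin1) and 1 lower (Cdh1). Over all genes above the floor in at least 1 array, 1.34% were at least 2-fold higher and 0.58% at least 2-fold lower, against 2.17% of the 46 in each direction, which is a single gene. Among the 42 genes above both floors, 28 (66.7%) were higher and 14 lower in the positive array, against 50.6% higher over all 8362 genes. Log2 ratios within 0.5 of 0 were found for 32 of the 42 (76.2%), against 85.4% of all genes. Their median log2 ratio was 0.12, against 0.00 over all 8362 genes. Low signals ran higher among genes above both floors. With a mean signal under 1000, the median log2 ratio was 0.22 over 20 junction and polarity genes and 0.09 over all 4433. For brighter genes it was 0.04 over 22 and -0.07 over all 3929. The shift at low signal is partly built in by the higher floor of the positive array. A gene with a negative signal between the floors is above both only if its positive signal is higher. This also adds to the counts of higher genes among those above both floors. The size of this part was not tested.

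**Figure D1:**
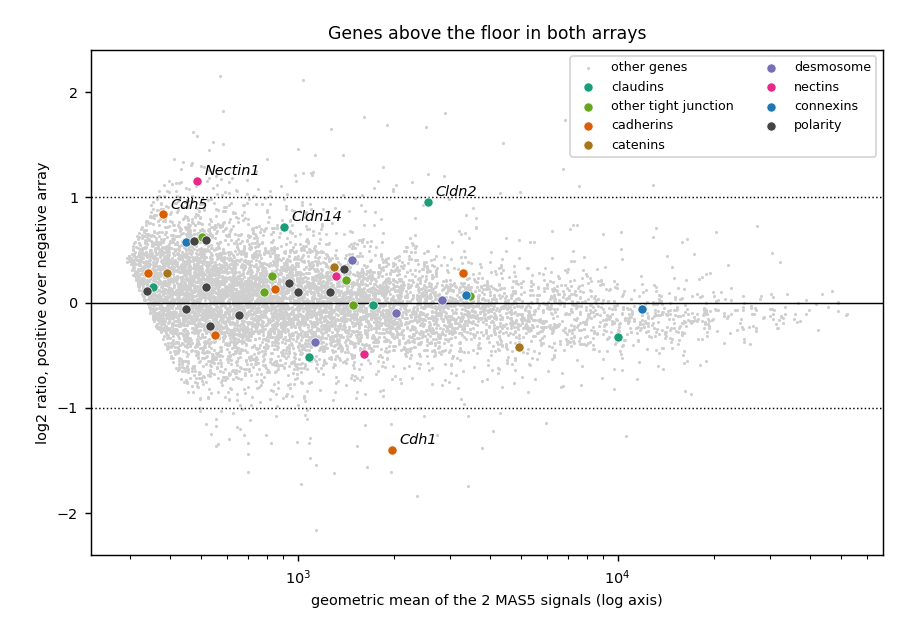
Log2 ratio, positive over negative array (vertical axis), against the geometric mean of the 2 MAS5 signals (log axis) for the 8362 genes above both floors. Grey points are other genes, coloured points are the 42 junction and polarity genes by role, and dotted lines mark 2-fold. Cdh1 at -1.40 and Nectin1 at 1.16 lie outside these lines, and Cldn2 at 0.96 lies just inside.

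Cadherins are calcium-dependent adhesion proteins that join neighbouring cells. Cdh1 encodes E-cadherin, the epithelial cadherin of adherens junctions. Its only probe set read 3200.8 (negative) and 1216.7 (positive array). The signal was 2.63-fold lower in Ezrin T567D-positive hepatocytes (log2 ratio -1.40), the 12th lowest of the 8362 genes above both floors, and both signals were well clear of the floors. No second probe set was present to set beside it. Cdh2 encodes N-cadherin, the other classical cadherin of hepatocytes, and went the other way by a small amount: its probe sets read 2970.8 and 3619.8 (log2 ratio 0.29) and 2891.4 and 3053.2 (0.08).

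In the mouse liver lobule, E-cadherin is known from hepatocytes near the portal vein. Of the 14 periportal genes with a probe set, 13 were lower and 1 higher in the positive array (median log2 ratio -1.07), and of the 14 pericentral genes above the floor all 14 were higher (median 1.08). These lists were chosen with earlier results of these data known. The part of this zonal difference in the Cdh1 signal was not tested.

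The remaining cadherins had low signals. Cdh5, the cadherin of endothelial cells, read 283.0 (negative) and 507.0 (positive array), 1.79-fold higher, and its second probe set was below the floor in both, at 217.4 and 216.1. Markers of endothelial cells were above the floor for 8 of 10 genes, Cdh5 and Cldn5 among them. Pecam1 and Lyve1 were below the floor in both arrays. The summed signal of all 10, which includes Cdh5 itself, was 5062.5 (negative) and 5348.4 (positive array). Of the 7 endothelial genes above both floors, Cdh5 included, 5 were higher and 2 lower, with a median log2 ratio of 0.15. Apart from Cdh5, the higher ones were Kdr (0.19), Clec4g (0.18), Cldn5 (0.15) and Stab2 (0.11). The lower ones were Egfl7 (-0.36) and Oit3 (-0.19). The part of endothelial RNA in the Cdh5 signal was not tested. Fewer cells of a type and less RNA per cell cannot be told apart in such bulk samples. Cdh6 read 614.7 and 495.9 (log2 ratio -0.31), Cdh15 815.1 and 889.3 (0.13), and P-cadherin (Cdh3) 308.9 and 375.6 (0.28). The other 15 cadherin genes were below the floor in both arrays.

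Catenins bind the cadherin tail and connect it to actin. The beta-catenin partner alpha-catenin (Ctnna1) had probe sets that disagreed: 5697.4 and 4265.6 (log2 ratio -0.42), 2332.9 and 2038.5 (-0.19), and 1050.6 and 1640.8 (0.64). No direction can be given for it. The cadherin stabiliser p120-catenin (Ctnnd1) was slightly higher in both probe sets above the floor, by log2 ratios of 0.34 (1156.5 to 1464.1) and 0.15 (1012.3 to 1122.1). Plakoglobin (Jup), shared by adherens junctions and desmosomes, read 355.2 and 431.7 (0.28). Neither Ctnnd1 nor Jup was lower in the array in which Cdh1 was lower.

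Nectins are immunoglobulin-like adhesion proteins that help to start adherens junctions. Nectin3 was lower in all 3 of its probe sets above both floors: 1905.2 and 1356.5 (log2 ratio -0.49), 1462.6 and 929.0 (-0.65), and 1211.0 and 743.4 (-0.70). Another Nectin3 probe set, above the floor in the negative array alone, read 274.1 and 273.2 and gives no direction. Counting probe sets above both floors, Nectin3 is the gene here with the most in agreement on a lower signal. Nectin1 had the highest ratio of the 42 genes, from a probe set that read 324.8 (negative) and 724.3 (positive array), 2.23-fold, log2 ratio 1.16. Its second probe set went the other way, at 423.4 and 379.2 (-0.16), and the third was above the floor in the positive array alone (243.1 and 343.8). Averaged over its probe sets the log2 ratio was 0.48, below 2-fold, and the 2-fold call also ended with a pseudocount of 100 (0.96). Nectin2 also disagreed between probe sets, at 1207.5 and 1437.4 (0.25) and 725.7 and 626.1 (-0.21).

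**Figure D2:**
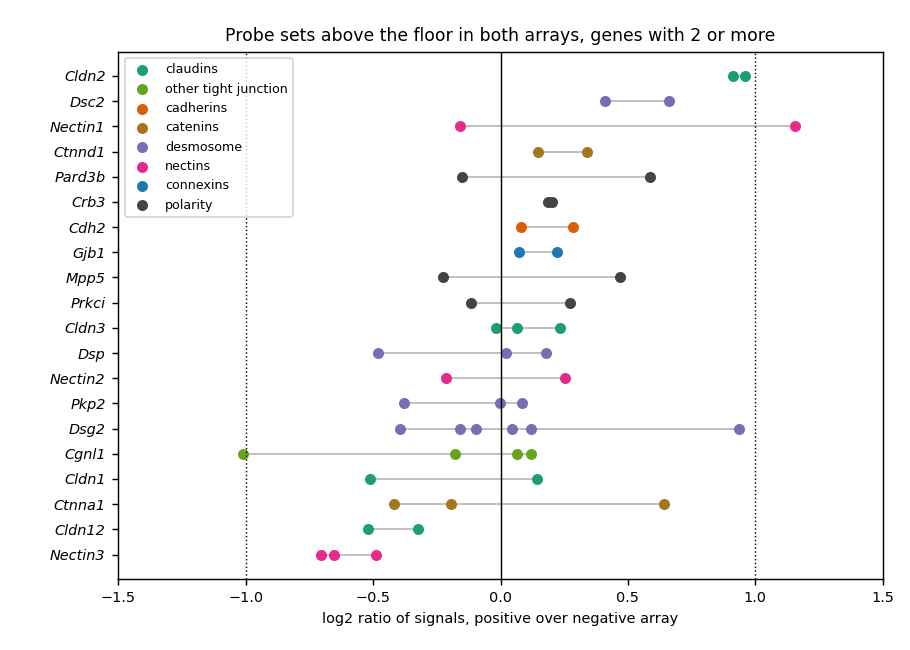
Log2 ratio, positive over negative array, for every probe set above both floors, for the 20 junction and polarity genes with 2 or more such probe sets. Each point is a probe set, coloured by role, and grey lines join probe sets of a gene. In 12 of the 20 genes the probe sets lie on both sides of 0, whereas Cldn2 has both near 1 and Nectin3 has all 3 at -0.49 or lower.

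Claudins are the membrane proteins that set which ions and molecules pass a tight junction. Cldn2, which forms pores for cations and water, was higher in both of its probe sets: 1832.7 (negative) and 3563.8 (positive array), 1.94-fold, log2 ratio 0.96, and 542.6 and 1021.9 (log2 ratio 0.91). The probe sets differed by far less than the SD of 0.42 between probe sets of a gene. Its log2 ratio was 1.00 after quantile normalization and 1.01 after loess correction, at or just past 2-fold. The pericentral genes described above had a median log2 ratio of 1.08. The part of that zonal difference in the Cldn2 signal was not tested. Cldn14 read 703.7 and 1160.7 (1.65-fold higher) in its only probe set. Cldn12 was lower in both of its probe sets, by log2 ratios of -0.32 (11185.5 to 8946.8) and -0.52 (1656.2 to 1155.0).

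Other claudins gave no clear direction. Cldn1, a sealing claudin, had log2 ratios of -0.51 (1292.5 to 905.4) and 0.14 (1023.4 to 1130.5) in its probe sets above the floor. Cldn3, another sealing claudin, read 1730.4 and 1708.2 (-0.02) in its brightest probe set and 1451.1 and 1519.1 (0.07) and 936.1 and 1101.8 (0.24) in the next. The remaining Cldn3 probe set was above the floor in the positive array alone, at 185.6 and 659.7, at least 2.61-fold higher, so it stands apart from the other 3. Cldn5, the endothelial claudin, read 334.8 and 372.2 (0.15). Cldn7 read 380.3 in the negative array and 239.4, below the floor, in the positive array, which gives a signal at least 1.14-fold lower; the 6 cholangiocyte markers with a probe set were below the floor in both arrays. The other 17 claudin genes were below the floor in both.

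The promoter windows of Cldn2 and Nectin3 are shown because, among genes with 2 or more probe sets above both floors, all of one sign, these had the highest and the lowest ratios. Each runs from 250 bases before to 50 after the start of transcription, in RefSeq's annotation of GRCm38.p6, and is written 5′ to 3′ on the strand of the gene. Cldn2 lies at chrX:139800558-139800857 on the plus strand and Nectin3 at chr16:46496918-46497217 on the minus strand. Capitals mark the TEAD motif GGAATG or its reverse complement CATTCC, the letters bound by the TEAD partners of Yap.
Cldn2: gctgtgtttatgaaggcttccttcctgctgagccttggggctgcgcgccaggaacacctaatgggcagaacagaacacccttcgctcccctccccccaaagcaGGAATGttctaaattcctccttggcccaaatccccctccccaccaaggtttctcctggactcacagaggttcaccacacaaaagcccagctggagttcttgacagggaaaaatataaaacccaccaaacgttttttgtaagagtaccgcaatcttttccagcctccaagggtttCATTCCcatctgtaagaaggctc
Nectin3: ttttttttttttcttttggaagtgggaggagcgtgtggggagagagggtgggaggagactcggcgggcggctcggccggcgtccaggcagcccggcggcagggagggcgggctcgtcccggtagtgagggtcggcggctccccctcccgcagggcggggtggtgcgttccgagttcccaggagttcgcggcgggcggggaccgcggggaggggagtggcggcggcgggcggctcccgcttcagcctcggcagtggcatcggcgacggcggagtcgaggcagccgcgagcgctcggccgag

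The Cldn2 window held the TEAD letters at 2 places, starting 147 bases before the start and at base 28 of the transcript, and the Nectin3 window at none. Of all 32851 windows in the RefSeq table, 14.7% held the letters at least once and 1.33% at 2 or more places. Of the 93 windows of 65 junction and polarity genes, 14.0% held them at least once and 2 windows at 2 or more places. The E-box CAGGTG or its reverse complement CACCTG, the letters bound by the Snail and Zeb repressors of E-cadherin, was in 32.3% of these 93 windows and in 20.2% of all windows. No window was available for Cdh1, so the E-cadherin promoter itself was not searched. The TCF/LEF letters CTTTGA or their reverse complement TCAAAG, read by beta-catenin's partners, were in 9.68% and 16.0%. Both strands were searched, the motifs do not overlap each other in these windows, and several genes have more than 1 window with shared bases. Neither the E-box nor the TCF/LEF letters were in the Cldn2 or Nectin3 window. Any bearing of these letters on the signals was not tested.

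The remaining tight junction genes were close to equal or slightly higher in the positive array. Tricellulin (Marveld2), which seals the points where 3 cells meet, read 405.0 and 622.4 (1.54-fold higher) in its only probe set. Occludin (Ocln) read 762.8 and 907.5 (log2 ratio 0.25), the scaffold ZO-3 (Tjp3) 1318.2 and 1528.7 (0.21), the adhesion molecule JAM-A (F11r) 759.0 and 812.2 (0.10), and ZO-1 (Tjp1) 1497.8 and 1474.2 (-0.02). Paracingulin (Cgnl1), a cytoplasmic junction protein, had its brightest probe sets near equal, at 3391.3 and 3546.2 (0.06) and 1680.5 and 1823.6 (0.12). Its other probe sets above the floor were lower, at 1469.3 and 1299.3 (-0.18) and at 1283.3 and 636.1 (-1.01). The last of these is 1 of only 2 probe sets of the 95 genes that were above both floors and at least 2-fold lower, the other being that of Cdh1. Cgn (cingulin) and Marveld3 were below the floor in both arrays.

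Desmosomes join cells through desmosomal cadherins and a plaque of desmoplakin and plakophilin. Dsc2 (desmocollin-2) was higher in both probe sets, by log2 ratios of 0.41 (1278.3 to 1696.9) and 0.66 (386.5 to 610.6). Its partner Dsg2 (desmoglein-2) had 6 probe sets above both floors, 3 higher and 3 lower. The highest read 1230.1 and 2355.1 (0.94), and the rest ran from -0.40 to 0.12. Desmoplakin (Dsp), the plaque protein that holds intermediate filaments, read 2794.6 and 2839.8 in its brightest probe set (0.02), with others at 0.18 and -0.48. Plakophilin-2 (Pkp2) ran from -0.38 to 0.08 over 3 probe sets. Dsc1, Dsc3, Dsg1a and Dsg1b, the desmosomal cadherins of stratified epithelia, were below the floor in both arrays.

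Connexins, the channel proteins of gap junctions, were nearly equal for the 2 that hepatocytes are known for. Connexin 32 (Gjb1) read 3280.0 and 3449.0 (log2 ratio 0.07) and 2521.0 and 2938.5 (0.22). Connexin 26 (Gjb2) read 12205.8 and 11706.7 (-0.06). Gjc3 was the only other connexin gene above the floor, at 366.1 and 545.7 (1.49-fold higher) near the floors. The other 8 were below the floor in both arrays, among them Gja1, at 229.3 and 315.8, and the endothelial connexin gene Gja4, at 67.4 and 259.3.

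Polarity genes were above the floor in at least 1 array for 14 of 16 symbols, and none reached 2-fold. In the Par complex, the scaffold Pard3 read 419.7 and 633.6 (1.51-fold higher). Its relative Pard3b had probe sets at 386.0 and 580.5 (0.59) and at 422.5 and 380.8 (-0.15). The atypical protein kinases of the complex were near equal: Prkcz read 491.9 and 544.2 (0.15), and Prkci 681.3 and 628.6 (-0.12) and 569.9 and 689.0 (0.27).

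Of the Par6 adaptors, Pard6b was near equal at 456.7 and 438.7 (log2 ratio -0.06), and the other genes were above the floor in 1 array alone. Pard6g read 185.0 and 335.2, above the floor in the positive array alone by a margin of about 1 signal unit, which bounds it at 1.33-fold higher or more. Pard6a read 295.7 and 55.2, above the floor in the negative array alone; its negative signal was under the positive array's floor, so no direction is given. For Pard6a and Pard6g the arrays therefore give little information.

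In the Crumbs complex at the apical membrane, Crb3 read 880.6 and 1001.0 (log2 ratio 0.18) and 801.2 and 921.5 (0.20). Another Crb3 probe set, above the floor in the negative array alone, went the other way at 350.5 and 297.1, at least 1.05-fold lower. The scaffold Mpp5 (Pals1) had probe sets of opposite sign, at 573.2 and 490.3 (-0.23) and 260.7 and 361.1 (0.47). The second of these lies near the floors and is above both only because its positive signal is higher, so the disagreement is weak. Patj, also near the floors, read 326.3 and 351.6 (0.11). In the Scribble complex, which opposes the apical complexes, Llgl1 read 1243.7 and 1556.0 (1.25-fold higher) and Dlg1 1214.9 and 1300.8 (0.10). Llgl2 read 344.4 in the negative array and 167.6, below the floor, in the positive array, which bounds it at only 1.03-fold lower or more. Scrib itself was below the floor in both arrays, at 249.5 and 223.6. The polarity kinase Lkb1 (Stk11) read 966.8 and 1036.9 (0.10).

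Probe sets of a single gene disagreed often. Of the 20 genes with 2 or more probe sets above both floors, 12 had probe sets on both sides of 0, 6 had all of them higher (Cldn2, Cdh2, Ctnnd1, Dsc2, Gjb1 and Crb3) and 2 all lower (Cldn12 and Nectin3). The gap between the 2 brightest probe sets had an SD of 0.46 over these 20 genes, against 0.42 over all 3182 genes. Of the 42 genes above both floors, 10 had a log2 ratio of at least 0.5 in size, 8 of them higher and 2 lower; over all 8362 genes there were 1223 of this size, 713 higher and 510 lower.

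Signals of the other 49 of the 95 genes, from 3.4 to 315.8, did not pass the floor in either array. They comprise 17 claudins, 15 cadherins, 8 connexins, 4 desmosomal cadherins, Cgn, Marveld3, Nectin4, Scrib and Pard3bos1. For these genes the arrays give no ratio. Without a floor 6 of the 95 genes would be counted as 2-fold higher and 14 as 2-fold lower, most of them from signals in this range.

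Genes that work with these junction and polarity proteins but lie outside the symbols above were close to equal. Of 31 further adherens and tight junction genes with a probe set, 20 were above the floor in at least 1 array, 9 higher and 10 lower, none at 2-fold, with a median log2 ratio of -0.03. The scaffold Magi1 read 358.9 and 685.3 (1.91-fold higher) and Lmo7, a linker of adherens junctions to actin, 565.5 and 779.7 (0.46), whereas beta-catenin (Ctnnb1), the direct partner of E-cadherin, read 11452.2 and 10786.8 (-0.09). Of 31 further polarity genes 23 were above the floor, 14 higher and 7 lower, none at 2-fold, with a median of 0.04. The scaffold kinase Cask read 622.9 and 392.9 (1.59-fold lower) and the Par1 kinase Mark3 718.8 and 1032.4 (1.44-fold higher).

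The bile canaliculus, the apical surface that these junctions enclose, showed no common shift. Of 17 genes 15 were above both floors, 7 higher and 8 lower, none at 2-fold, with a median log2 ratio of 0.00. Farthest from 0 were Mylk, the myosin light chain kinase (2153.5 to 3030.2, 1.41-fold higher), and the bile salt export pump Abcb11 (4704.2 to 3527.8, 1.33-fold lower). Among transcription factors and splicing regulators known to act on E-cadherin, 8 of 12 were above the floor, 4 higher and 4 lower. The repressor Slug (Snai2) read 653.6 and 434.3 (log2 ratio -0.59), Zeb1 541.9 and 576.0 (0.09) and Zeb2 341.3 and 368.8 (0.11), whereas Snai1 and Twist1 were below the floor in both arrays. The liver factor Foxa2 read 667.3 and 413.3 (1.61-fold lower), and Foxa1 223.1 and 449.0, at least 1.78-fold higher. The remaining regulators above the floor were Hnf4a at 14622 and 11717.9 (-0.32), Esrp2 at 2080.9 and 1799.8 (-0.21) and Grhl2, near the floors, at 289.2 and 336.1 (0.22). Snai2 and Cdh1 were both lower in the positive array, and any link between them was not tested.

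**Figure D3:**
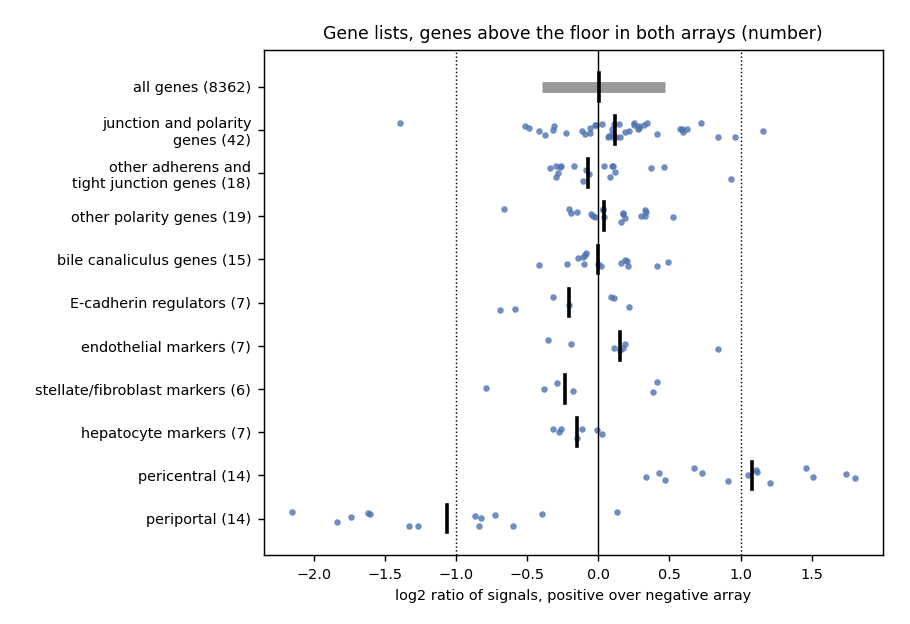
Log2 ratio, positive over negative array, for genes of each list above both floors, with the number of genes in brackets. Points are genes, spread vertically only for legibility, black bars are medians, the grey bar spans the 10th to the 90th percentile of all 8362 genes, and dotted lines mark 2-fold. Junction and polarity genes have a median of 0.12 and bile canaliculus genes of 0.00, whereas the pericentral and periportal lists have medians of 1.08 and -1.07.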

How the data were processed

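RNA of 2 hepatocyte samples was measured on 1 array each. The authors deposited MAS5 signal intensity per probe set on a linear scale, per the submitters' processing notes. Both arrays had a 2% trimmed mean of 500.0, and scaling of this kind hides a shift of all transcripts. The sources used here do not give MAS5's version, settings or detection calls. Of 45101 probe sets, the 34945 annotated to a single gene were used; 932 with several symbols, 9160 without one and 64 controls were left out. By Entrez ID, 34741 symbols were matched to RefSeq and 0 changed.

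Groups came from the group label. The floor used 84 receptor probe sets; the brightest probe set by mean of both arrays stood for a gene, and bounds were computed as the report states. Every gene above the floor could be named, others from fixed lists. Members and lists were chosen with earlier results of these data known. Log2 ratios and 2-fold counts were computed in Python 3.11.15 with pandas 2.3.3 and checked on simulated arrays. There, 199 of 200 changed genes were called among 18193. The changes were planted only in genes with high signals and were all larger than 2-fold. The simulation therefore does not cover dim genes or changes near 2-fold, such as most of the genes reported here. How this recovery varies with signal or with the size of the log2 ratio was not tested. The number of arrays limits the precision, and 11 alternatives were run.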

Additional observations from a re-analysis of the deposited data

How the results depend on the processing

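The results were recomputed under 11 alternatives, changing 1 choice at a time. Cdh1 was at least 2-fold lower in each, with log2 ratios from -1.40 to -1.33. Having 1 probe set well clear of the floors, Cdh1 could not change where only floors, bounds or the choice of probe sets changed. Those alternatives are therefore no check of it. The others gave -1.36 after quantile normalization, -1.36 after loess correction, -1.40 median centred and -1.33 with a pseudocount of 100. The count of genes at least 2-fold lower was 1 except without a floor (14). The count at least 2-fold higher, 1 with the main settings, was 6 without a floor, 0 with the mean over probe sets, 0 with a pseudocount of 100, 2 after quantile normalization and 2 after loess correction. Over all genes, 136 were 2-fold higher and 59 lower with the main settings. These counts became 1629 and 1655 without a floor, 67 and 41 with a pseudocount of 100, 80 and 46 with the 99th percentile floor, 83 and 59 with 1 floor for both arrays, and 106 and 38 with the mean over probe sets. Over the 46 genes above the floor in at least 1 array, bounds included, the median log2 ratio was 0.10, and under the alternatives it ran from 0.09 (loess correction) to 0.14 (without _s_at, _x_at and _a_at probe sets). Of 490 single-gene values, 14 moved by more than 0.30, the SD of 1 probe set. Many of the 490 could not move, because several alternatives leave a gene above both floors unchanged. The mean over probe sets moved 7 of 46 genes, and leaving out the floor moved 4 of 46. No paired analysis was possible because each group holds 1 array. For the same reason no replicate could be left out. Signal over background limits the 49 genes below the floor.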
